A study of Homo sapiens with 9 samples.

Results

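The genes described here are 45 human cell cycle and mitosis genes, chosen by name: a probe set belonged to the group when its deposited gene symbol was one of the 45. The names were chosen with earlier results of these data known. They were carried by 50 of the 33297 probe sets on the array, and every one of the 45 genes passed the filter on dim values. Transcript levels came from H9 cells, a human embryonic stem cell line that is established in culture and divides continuously. At day 3 there were 3 samples of cells given no siRNA, 3 of cells given a non-silencing siRNA and 3 of cells given an siRNA against TCF7L1. Each was measured on 1 Affymetrix whole-transcript array. Cells given no siRNA are called untreated here, and their sample titles say only that there was no siRNA. TCF7L1 is a factor of the TCF/LEF family that represses target genes of the Wnt pathway, and the question here was how the genes of the division cycle stood in untreated cells and after its knockdown. All samples share 1 cell line, the sequences, dose and delivery of the siRNAs were not given in the sources used here, and nothing in the labels says that replicates were separate cultures. The p-values therefore measure only the spread between these samples, which may be technical.

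Cells pass through G1, copy their DNA in S phase, pause in G2 and divide in mitosis, and each step is driven by cyclins that bind and activate cyclin-dependent kinases (CDKs). In most cells D-type cyclins and then cyclin E with their kinases phosphorylate the retinoblastoma protein, which frees E2F factors to switch on the genes of DNA replication. Later in the cycle the MuvB complex with B-MYB and FOXM1 switches on the genes of G2 and mitosis. Human embryonic stem cells are known for a short G1 and for a large share of cells in S phase.

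The knockdown was present in each library labelled with it. TCF7L1 signals were 1473, 1842 and 1667 in untreated cells, 1709, 1703 and 1625 in non-silencing controls and 389, 346 and 352 after TCF7L1 siRNA, a log2 difference of -2.17 ± 0.10 (SE) against the non-silencing siRNA (limma, Benjamini-Hochberg adjusted p = 7.26e-06). In untreated cells the 7 pluripotency markers lay between percentiles 86.2 (L1TD1) and 99.7 (LIN28A) of the 22784 tested probe sets. OCT4 (POU5F1) lay at 99.2 and NANOG at 95.3. Of the 7 fibroblast markers, the matrix genes DCN and LUM lay below the first percentile, COL3A1 at 22.8, PDGFRB at 46.1, COL1A2 at 69.5, COL1A1 at 70.5 and THY1 at 97.0. Of the 2 blood cell markers, PTPRC lay below the first percentile and CD34 at 20.9. The 5 neural markers lay between 5.05 (PAX6) and 92.1 (TUBB3), and the 6 of mesoderm and endoderm between 27.4 (FOXA2) and 48.2 (EOMES). No marker of another cell type passed the test in any comparison, though some stood apart. The collagen gene COL1A1 gave 430.1, 405 and 422 in untreated cells, 436, 404 and 441 in non-silencing controls and 322, 282 and 316 after TCF7L1 siRNA. Its TCF7L1 siRNA values were below all 6 of the others, with a log2 difference of -0.46 ± 0.09 (SE) against non-silencing and -0.43 ± 0.09 against no siRNA (limma adjusted p = 0.296 and 0.298, the lowest among these markers in each of these comparisons). Against no siRNA, 3 of the 5 tested genes of the fibroblast list were lower at an unadjusted limma p under 0.05. Of all tested probe sets, 7.26% had such a p in either direction. The 3 were COL1A1, COL1A2 and THY1, and THY1, at percentile 97.0, was bright in untreated cells. PDGFRB differed by -0.26 ± 0.16 (SE) and COL3A1, in the other direction, by 0.28 ± 0.15. Of the 6 markers of mesoderm and endoderm 1 was under that p, FOXA2, higher by a log2 difference of 0.60 ± 0.16 (limma adjusted p = 0.545). Whether cells of other types had a part in the differences of the cell cycle genes was not tested.

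In untreated cells most cell cycle genes were bright. The median gene of the 45 stood at the 87.9th percentile of the tested probe sets, and 35 genes lay above the 75th. The brightest were CDK4, the kinase partner of the D-type cyclins, with a mean signal of 2387, cyclin D2 with 2301 ± 12.8, PLK1 with 2263 ± 136 and the licensing subunit MCM7 with 2198 ± 141 (mean ± SD, n = 3). The dimmest were the CDK inhibitor CDKN2C with 23.2 ± 4.72, cyclin E2 with 127 ± 13.2, the pocket protein RBL1 with 193 ± 7.26 and CDK6 with 237 ± 19.6. Signals are PLIER intensities on a linear scale and depend on the probes of each probe set, so these ranks place a gene on its array and do not order transcript amounts. By role, the median gene stood at the 91.8th percentile for origin licensing and S phase, the 90.5th for mitosis, the 89.4th for the G1 cyclins and their kinases, the 84.7th for the G2/M switch and the 77.7th for the G1/S transition. On all 9 arrays, 44 of the 45 genes lay above the median of the negative control probe sets, with CDKN2C as the exception. The 95th percentile of those controls was far higher, 1443 to 1966 by array. On every array 30 of the 45 genes lay below it, and 6 lay above it on all 9. By that stricter measure most of the genes were not above background. Neither measure is taken here as a limit of detection.

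**Figure D1:**
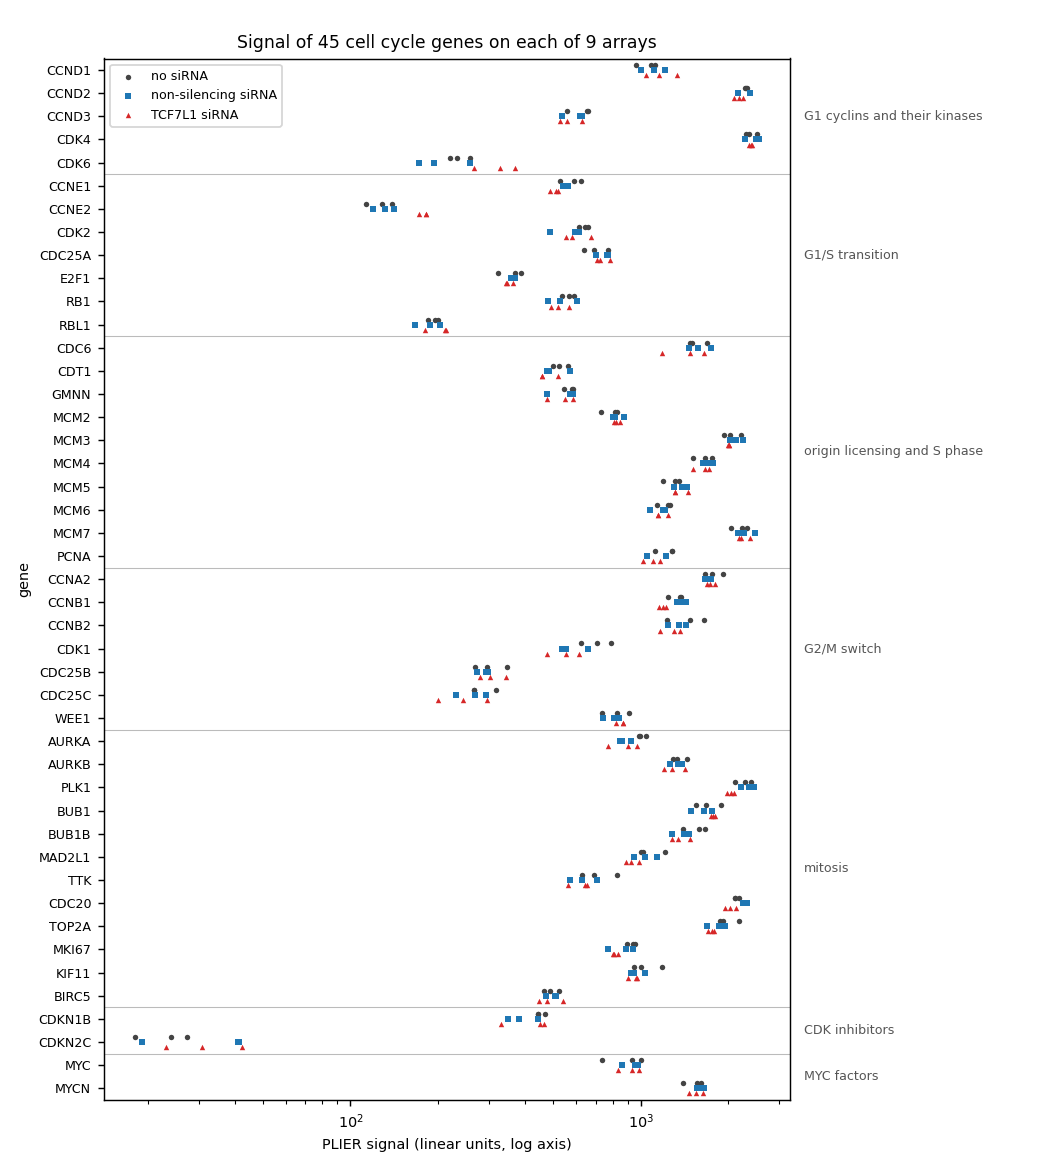
PLIER signal of each of the 45 genes (vertical axis, ordered by role) on each of the 9 arrays, on a logarithmic axis of linear units; circles are no siRNA, squares non-silencing siRNA and triangles TCF7L1 siRNA. In 40 of the 45 genes the 9 values lie within 1.5-fold once the offset of 16 is added, and CDKN2C stands alone at the dim end.

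Levels of these genes varied little. The standard deviation within groups on the log2 scale had a median of 0.11 over the 45 genes and of 0.15 over all 22784 tested probe sets. In 40 of the 45 the highest of 9 values (offset added) was under 1.5 times the lowest, which held for 72.1% of all tested probe sets. Most of the 45 genes are brighter than most tested probe sets, and no set of matched brightness was compared. The smaller spread is therefore not given as a trait of cell cycle genes. The 5 with a wider range were CDK6, CDKN2C, CDK1, CDC25C and CCNE2. The smallest spread within groups was that of CDC20, the activator of the anaphase-promoting complex, with 0.04, and the largest that of CDKN2C with 0.31.

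Promoters of genes from different phases carry different short elements, and 5 are shown as examples. Except for PCNA, they belong to genes whose TCF7L1 siRNA and non-silencing groups did not overlap. Of the genes without overlap, CCNE1, CCNE2 and MCM3 are not shown. Each sequence is the 250 bases before the RefSeq start, read 5′ to 3′ on the gene's strand in GRCh38.p14. Capitals mark matches on either strand to the E2F letters TTCGCGC and the E2F variants spelled TTGGCGC and also TTCCCGC. They also mark the CHR (cell cycle genes homology region, bound by MuvB), spelled TTTGAA with the variant spelled TTCGAA, and the CCAAT box.
PCNA (chr20:5126623-5126872, minus strand): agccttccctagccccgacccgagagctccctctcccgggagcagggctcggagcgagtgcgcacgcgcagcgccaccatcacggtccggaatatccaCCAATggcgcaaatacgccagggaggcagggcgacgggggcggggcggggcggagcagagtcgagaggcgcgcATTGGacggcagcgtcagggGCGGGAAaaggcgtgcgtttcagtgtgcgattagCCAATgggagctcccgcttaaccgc
CCNB1 (chr5:69166900-69167149, plus strand): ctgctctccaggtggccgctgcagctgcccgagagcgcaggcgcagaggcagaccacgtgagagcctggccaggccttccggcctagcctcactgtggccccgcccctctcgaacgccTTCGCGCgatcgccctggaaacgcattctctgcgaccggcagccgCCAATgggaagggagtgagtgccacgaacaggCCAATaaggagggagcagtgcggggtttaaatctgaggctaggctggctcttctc
PLK1 (chr16:23678639-23678888, plus strand): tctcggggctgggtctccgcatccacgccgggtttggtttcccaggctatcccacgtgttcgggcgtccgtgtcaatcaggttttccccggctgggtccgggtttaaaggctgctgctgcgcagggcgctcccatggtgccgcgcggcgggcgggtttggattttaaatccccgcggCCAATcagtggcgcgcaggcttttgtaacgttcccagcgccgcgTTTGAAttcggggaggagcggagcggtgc
CDC20 (chr1:43358731-43358980, plus strand): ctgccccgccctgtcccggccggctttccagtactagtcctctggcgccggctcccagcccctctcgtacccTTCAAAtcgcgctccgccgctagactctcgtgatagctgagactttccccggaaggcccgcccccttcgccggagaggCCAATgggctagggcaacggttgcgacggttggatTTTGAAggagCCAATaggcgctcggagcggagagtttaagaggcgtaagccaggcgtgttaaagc
CDK6 (chr7:92836574-92836823, minus strand): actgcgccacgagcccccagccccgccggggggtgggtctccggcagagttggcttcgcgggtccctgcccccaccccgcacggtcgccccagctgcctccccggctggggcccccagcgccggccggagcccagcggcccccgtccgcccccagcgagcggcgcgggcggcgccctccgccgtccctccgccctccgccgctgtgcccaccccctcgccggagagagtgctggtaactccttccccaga
PCNA, the sliding clamp of DNA polymerase, holds an E2F match whose first base is 59 bases before the start and 3 CCAAT boxes. CCNB1, the cyclin of mitotic entry, holds an E2F match at 132 bases and 2 CCAAT boxes. PLK1, a kinase of mitotic entry and spindle assembly, and CDC20 hold CHR matches, 29 bases before the start in PLK1 and 65 and 178 bases before it in CDC20, and CCAAT boxes, 1 in PLK1 and 2 in CDC20. The CDK6 window holds none of these letters.

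RefSeq promoters of 300 bases (250 before to 50 after the start) were matched for 34 of the 45 genes. E2F letters were in 16 of the 34 (47.1%), against 11.2% of 27305 promoters of the same length. They were in 7 of 8 promoters of origin licensing and S phase, 4 of 6 of the G2/M switch, 3 of 5 of the G1/S transition, 1 of 9 of mitosis and 0 of 3 of the G1 cyclins and their kinases. CHR letters were in 12 of 34 (35.3% against 16.6%), of which 8 were among the 9 mitosis promoters and 1 among the 8 of licensing and S phase. CCAAT was in 20 of 34 (58.8% against 35.7%). The TCF/LEF core CTTTGA, which shares letters with the CHR element and was added after the data were seen, was in 2 of 34 (5.88% against 13.1%), GMNN and MYCN. A match describes letters in this window only.

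No cell cycle gene passed the test in any comparison. With TCF7L1 siRNA against non-silencing siRNA, 0 of 45 genes had a limma adjusted p under 0.05, where 0.0263% of all tested probe sets passed. An unadjusted p under 0.05 was found for 4 of 45, against 2.58% of all tested probe sets: CCNE2 and CDK6 were higher and CCNB1 and PLK1 lower. With non-silencing against no siRNA, limma called 0 of 45 genes, where 0% of probe sets passed, and an unadjusted p under 0.05 was found for 0 of 45 against 2.41%. With TCF7L1 siRNA against no siRNA it called 0 of 45, where 0.0527% of probe sets passed, and an unadjusted p under 0.05 was found for 3 of 45 against 7.26%: CCNE2 and CDK6 higher, CDK1 lower. Each of the 3 groups enters 2 of these comparisons, so the comparisons are not independent of each other. Because the genes were chosen with earlier results known, shares set beside all tested probe sets, here and below, only describe the list.

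Each interval gives the precision of 1 gene's difference between these samples, whose spread may be technical. The 45 intervals of a comparison are not a joint bound. The 95% interval of the difference lay within 1.5-fold in either direction for 43 of 45 genes between the siRNAs, 44 between the controls and 41 between TCF7L1 siRNA and no siRNA. Over all tested probe sets the same was true of 94.6%, 88.8% and 85.3%. All 45 intervals lay within 2-fold in each comparison, and the widest bound was that of CDK6 between the siRNAs, a log2 difference of 0.93.

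Medians over the group lay slightly below 0. The median log2 difference over the 45 genes was -0.03 between the siRNAs, -0.05 between the controls and -0.07 between TCF7L1 siRNA and no siRNA, where the medians over all tested probe sets were -0.005, -0.01 and -0.02. The difference was above 0 for 11, 18 and 15 of the 45 genes, against 47.8%, 46.3% and 45.8% of all tested probe sets. These counts moved with the scaling, to 15, 20 and 21 with quantile normalization and to 12, 24 and 19 with the spread of each array as a covariate. The mean log2 level over the 45 genes was 9.74 without siRNA, 9.70 with the non-silencing and 9.69 with the TCF7L1 siRNA, with a pooled SD within groups of 0.06. The group means thus lay within 1 SD of each other, though this SD is that of single arrays and the differences of the means were not tested. Single arrays decided the sign of 2 of these medians: without TCF7L1 siRNA replicate 2 the median between the siRNAs was 0.00038, and without non-silencing replicate 3 that between the controls was 0.0066.

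**Figure D2:**
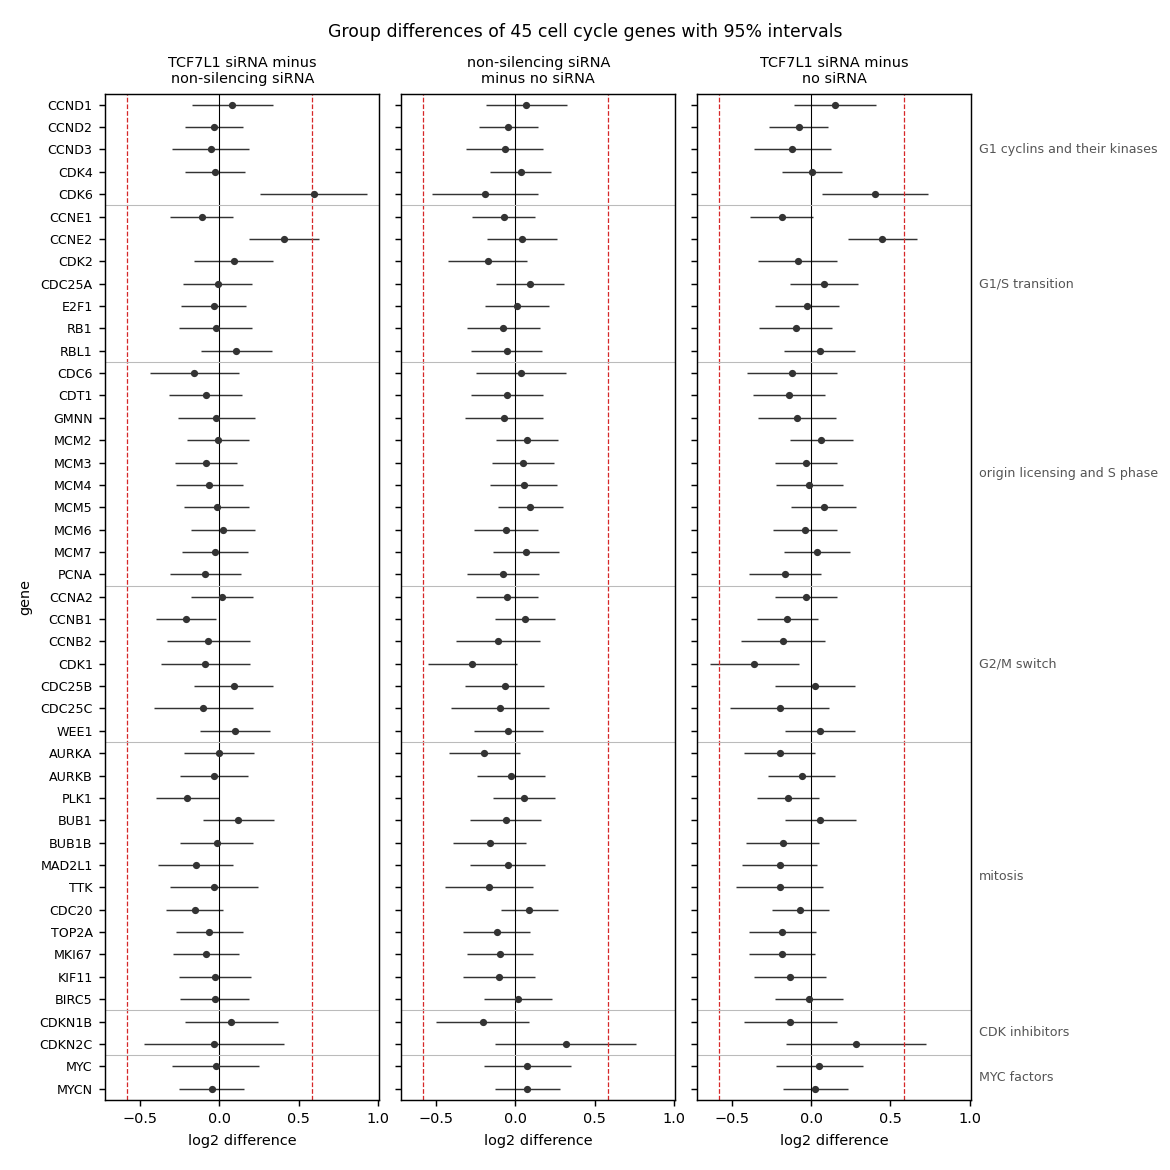
Log2 difference of each of the 45 genes (points) with its 95% moderated interval (bars) in the 3 comparisons; solid lines mark 0 and dashed lines 1.5-fold in either direction. CDK6 and CCNE2 stand to the right in both panels with TCF7L1 siRNA, and most points of mitosis lie left of 0 in the panel against no siRNA.

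Whether the groups overlap was also counted. Between the siRNAs all 3 values of one group lay on one side of all 3 of the other for 7 of 45 genes, where 4.99% of all tested probe sets did so: 2 were higher (CDK6 and CCNE2), against 1.88%, and 5 lower (CCNE1, MCM3, CCNB1, PLK1 and CDC20), against 3.12%. Between the controls this held for 3 of 45 against 6.86%: 1 was higher (CDC20), against 2.47%, and 2 lower (AURKA and CDKN1B), against 4.39%. Between TCF7L1 siRNA and no siRNA it held for 11 of 45 against 14.4%. Of these 2 were higher (CDK6 and CCNE2), against 6.43%, and 9 lower (CCND2, CCNE1, CCNB1, CDK1, AURKA, PLK1, MAD2L1, TOP2A and MKI67), against 7.93%. CCNE1, CCNB1 and PLK1 lay below all 6 control values (6.67% of the genes, 1.37% of all tested probe sets) and CDK6 and CCNE2 above all 6 (4.44% and 0.812%). The smallest two-sided exact permutation p that 3 samples against 3 allow is 0.1. Any gene whose groups do not overlap has this p, as CDK6, CCNE2, CCNB1, PLK1 and CDC20 had between the siRNAs. It therefore adds nothing to these counts.

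Among the G1 cyclins and their kinases, the 3 D-type cyclins are the regulatory subunits that bring CDK4 and CDK6 to the retinoblastoma protein. CDK6, whose probe set of 40 probes lies on the minus strand of chr7:92234235-92463222 (build 37), had signals of 259, 233 and 220.3 in untreated cells, 258, 195 and 172 in non-silencing controls and 369, 267 and 327 after TCF7L1 siRNA. All 3 values with TCF7L1 siRNA were above all 6 of the others, though the lowest of them exceeded the highest control value by little. The log2 difference was 0.59 ± 0.15 (SE) against the non-silencing siRNA, 1.51-fold (adjusted p = 0.828), and 0.40 ± 0.15 against no siRNA (adjusted p = 0.662). Neither passed; with the spread of each array as a covariate the first was 0.62 with an adjusted p of 0.0385, the only call of any of the 45 genes under the alternatives run.

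CDK4 varied far less, with means of 2387 ± 112 without siRNA, 2444 ± 145 with non-silencing and 2393 ± 29.9 with TCF7L1 siRNA (mean ± SD, n = 3). Cyclin D1, which is a Wnt target in some tissues, had signals of 1084, 1124 and 962 in untreated cells, 1212, 1112 and 1005 in non-silencing controls and 1331, 1157 and 1045 after TCF7L1 siRNA. These groups overlapped, with the highest value in TCF7L1 siRNA replicate 1 and a log2 difference of 0.08 ± 0.12 (SE) between the siRNAs. For cyclin D2 the values were 2299.6, 2314 and 2289 in untreated cells, 2371, 2163 and 2166 in non-silencing controls and 2251, 2100.1 and 2187 after TCF7L1 siRNA. The TCF7L1 siRNA values lay below all 3 untreated values and within the range of the non-silencing ones or under it, with a difference of -0.03 ± 0.08. Cyclin D3 gave 556, 653 and 656 in untreated cells, 629, 616 and 534 in non-silencing controls and 628, 527 and 557 after TCF7L1 siRNA, and all 3 groups overlapped.

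At the G1/S transition the 2 E-type cyclins, which activate CDK2, lay on opposite sides. Cyclin E2 (CCNE2) had signals of 128, 139 and 113 in untreated cells, 141, 132 and 119 in non-silencing controls and 172, 181 and 181 after TCF7L1 siRNA. Every TCF7L1 siRNA value was above every control value, and the 2 control groups overlapped. The log2 difference was 0.41 ± 0.10 (SE) against non-silencing (adjusted p = 0.713) and 0.45 ± 0.10 against no siRNA (adjusted p = 0.394, the lowest of any of the 45 genes). Cyclin E1 (CCNE1) had signals of 528, 620.3 and 589 in untreated cells, 543, 561 and 540.1 in non-silencing controls and 512, 488 and 519 after TCF7L1 siRNA. All 3 TCF7L1 siRNA values were below the 6 others, with a difference of -0.11 ± 0.09 against non-silencing and -0.19 ± 0.09 against no siRNA (adjusted p = 1 and 0.662).

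**Figure D3:**
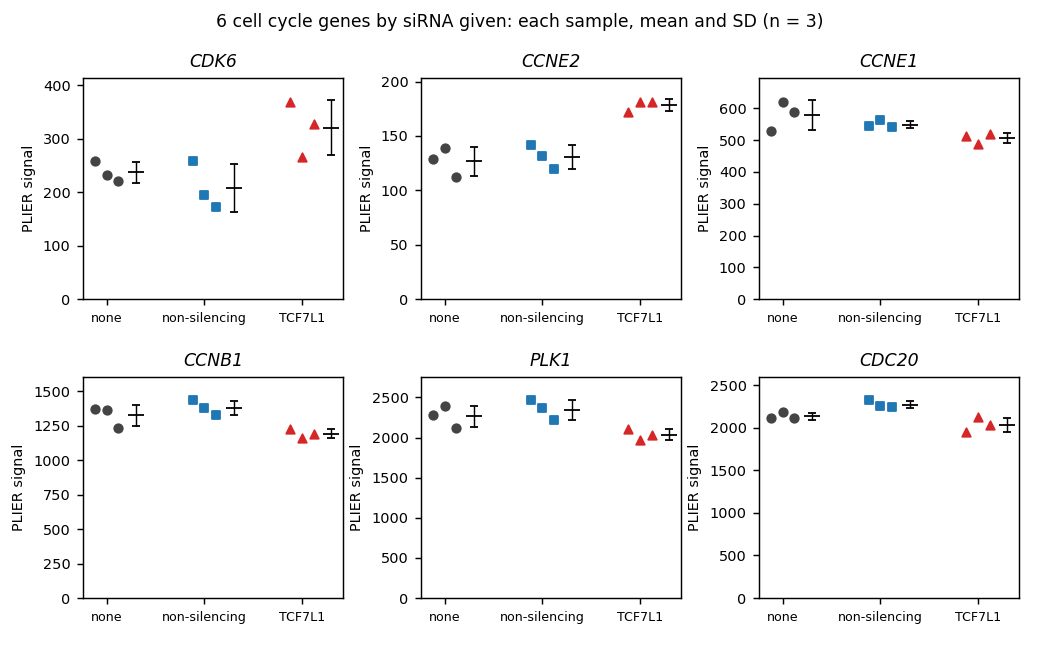
PLIER signal (linear axis from 0) of 6 genes in each sample, grouped by the siRNA given; the dash and bar beside each group are the mean and SD of 3 samples. CDK6 and CCNE2 are higher with TCF7L1 siRNA than in all 6 control samples, CCNE1, CCNB1 and PLK1 are lower than in all 6, and CDC20 is lower than in the non-silencing group.

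CDK2 itself gave 645, 658 and 611 in untreated cells, 614, 595 and 488 in non-silencing controls and 675, 551 and 581 after TCF7L1 siRNA. The groups overlapped, and the lowest value was that of non-silencing replicate 3. The other G1/S genes, the CDK2-activating phosphatase CDC25A, the transcription factor E2F1 and the pocket proteins RB1 and RBL1, had log2 differences between the siRNAs of -0.01, -0.04, -0.02 and 0.11. In none of these did the groups separate. Over the 7 genes of this step the median difference was -0.01 between the siRNAs and -0.03 against no siRNA.

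No gene of origin licensing and S phase differed by a called amount, and the differences were small. CDC6 and CDT1 load the MCM2 to MCM7 helicase onto origins, geminin (GMNN) inhibits CDT1, and PCNA clamps the polymerase. Over these 10 genes the log2 difference between the siRNAs ran from -0.16 in CDC6 to 0.02 in MCM6, with a median of -0.05. All 10 intervals lay within 1.5-fold in each of the 3 comparisons. In CDC6 the low mean came from TCF7L1 siRNA replicate 1, with 1184 against 1475 and 1657 in the other two, while the 6 control values ran from 1469 to 1740.1. MCM3 alone separated between the siRNAs, with 2007 ± 4.05 with TCF7L1 siRNA and 2131 ± 113 with non-silencing (mean ± SD, n = 3), but its untreated values of 2035, 2206 and 1938 spanned the TCF7L1 siRNA group. PCNA had the lowest difference of the 10 against no siRNA, -0.16 ± 0.10 (SE).

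The G2/M switch turns on CDK1 with its cyclins: CDC25 phosphatases activate the kinase and WEE1 inhibits it. Cyclin B1 (CCNB1; chr5:68462837-68474072, plus strand, build 37) had signals of 1375, 1363 and 1238 in untreated cells, 1435, 1380.0 and 1329 in non-silencing controls and 1224, 1159 and 1194 after TCF7L1 siRNA. The TCF7L1 siRNA values were the 3 lowest of the 9, and the control groups overlapped. The log2 difference was -0.21 ± 0.09 (SE) against non-silencing and -0.15 ± 0.09 against no siRNA (adjusted p = 1 and 0.666). CDK1 had another pattern, with 790.2, 704 and 623 in untreated cells, 658, 552 and 536 in non-silencing controls and 611, 475 and 554 after TCF7L1 siRNA. Here it was the untreated group that was high: the non-silencing group overlapped it in 1 sample and the TCF7L1 siRNA group lay just below it. The differences were -0.27 ± 0.13 between the controls and -0.36 ± 0.13 against no siRNA, but -0.09 ± 0.13 between the siRNAs, and none passed (adjusted p = 0.927, 0.651 and 1).

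Cyclin A2, which serves both S phase and G2, had means of 1782 ± 131, 1716 ± 42.2 and 1738 ± 52.0 (SD, n = 3) without siRNA, with non-silencing and with TCF7L1 siRNA. Cyclin B2, CDC25B, CDC25C and WEE1 had differences of -0.07, 0.09, -0.10 and 0.10 between the siRNAs, with overlapping groups. The median over the 7 genes of this switch was -0.07 between the siRNAs and -0.15 against no siRNA. The latter was -0.08 with the spread of each array as a covariate and -0.10 with quantile normalization.

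Differences of the mitosis genes were mostly negative, and none passed the test. Of the 12, 11 had a difference below 0 between TCF7L1 siRNA and no siRNA, with a median of -0.16, and the exception was the checkpoint kinase BUB1 with 0.06 ± 0.10 (SE). Between the siRNAs 11 of 12 were again below 0 but the median was -0.03, and between the controls 9 of 12 were below 0 with a median of -0.08. Differences above 0 thus numbered 1, 3 and 1 of 12 between the siRNAs, between the controls and against no siRNA. Of all tested probe sets 47.8%, 46.3% and 45.8% lay above 0. The counts above 0 were 3, 4 and 2 with quantile normalization and 2, 4 and 2 with the spread of each array as a covariate. The mean log2 level over the 12 genes was 10.29 without siRNA, 10.22 with non-silencing and 10.16 with TCF7L1 siRNA, with a pooled SD of 0.08. The first and last of these means lay further apart than that SD of single arrays, and their difference was not tested. In bulk RNA, fewer cells in a phase and less RNA in each such cell cannot be told apart.

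PLK1 (chr16:23690191-23701688, plus strand, build 37), whose promoter above holds the CHR letters, had signals of 2283, 2388 and 2118 in untreated cells, 2463, 2364 and 2216 in non-silencing controls and 2102, 1974 and 2038 after TCF7L1 siRNA. All 3 TCF7L1 siRNA values were under the 6 others. The log2 difference was -0.20 ± 0.09 (SE) against non-silencing and -0.15 ± 0.09 against no siRNA (adjusted p = 1 and 0.672). CDC20 (chr1:43824600-43828874, plus strand, build 37) had signals of 2111, 2182 and 2113 in untreated cells, 2319.7, 2249 and 2241 in non-silencing controls and 1954, 2119.8 and 2034 after TCF7L1 siRNA. The non-silencing group was above both other groups, which overlapped, so the difference between the siRNAs was -0.16 ± 0.08 and that against no siRNA -0.07 ± 0.08.

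The kinase AURKA, which matures the spindle poles, gave 1041, 996 and 985 in untreated cells, 922, 862 and 851 in non-silencing controls and 900.1, 769 and 967 after TCF7L1 siRNA. Untreated cells were above all 6 samples given an siRNA. The siRNA groups overlapped, with a difference of -0.0047 ± 0.10 (SE) between them, and between the controls it was -0.20 ± 0.10 (limma adjusted p = 0.927). BUB1B, a component of the spindle checkpoint, gave 1671, 1587 and 1396 in untreated cells, 1466, 1404 and 1279 in non-silencing controls and 1476, 1345 and 1277 after TCF7L1 siRNA. Its groups overlapped, with differences of -0.16 ± 0.10 between the controls and -0.02 ± 0.10 between the siRNAs. TOP2A, which untangles DNA, the proliferation marker MKI67 and the checkpoint protein MAD2L1 were below all untreated values with TCF7L1 siRNA, with log2 differences of -0.18, -0.18 and -0.20, and overlapped the non-silencing group. The checkpoint kinase TTK, the spindle motor KIF11, and AURKB and BIRC5 of the chromosomal passenger complex differed from untreated cells by -0.20, -0.13, -0.06 and -0.01 with overlapping groups.

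Of the CDK inhibitors, CDKN1B gave 443, 444 and 466 in untreated cells, 441, 349.6 and 381 in non-silencing controls and 451, 331 and 463 after TCF7L1 siRNA. All non-silencing values lay under the untreated ones, with a log2 difference of -0.21 ± 0.13 (SE), and the TCF7L1 siRNA values spanned both. CDKN2C, an inhibitor of CDK4 and CDK6, gave 27.4, 18.1 and 24.1 in untreated cells, 19.1, 41.0 and 41.5 in non-silencing controls and 23.2, 42.4 and 30.8 after TCF7L1 siRNA. These values sit near the dim end of the arrays, and CDKN2C passed the filter only through non-silencing replicates 2 and 3 and TCF7L1 siRNA replicate 2, so its differences describe dim signal. The factors MYC and MYCN, which promote growth and cell cycle entry, overlapped in all groups. MYC gave 736, 1004 and 931 in untreated cells, 862, 981 and 952 in non-silencing controls and 832, 935 and 985 after TCF7L1 siRNA. For MYCN the values were 1393, 1567 and 1612 in untreated cells, 1557, 1596 and 1655 in non-silencing controls and 1461, 1555 and 1637 after TCF7L1 siRNA. Their differences between the siRNAs were -0.02 ± 0.12 and -0.05 ± 0.09, and untreated replicate 1 was the lowest of the 9 in both.

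The mean level over the 45 genes was lowest on the arrays of narrowest spread. The interquartile range of log2 signals over all tested probe sets was 2.35 on non-silencing replicate 3 and 2.35 on TCF7L1 siRNA replicate 2, and between 2.49 and 2.67 on the other 7. On those 2 arrays the mean over the 45 genes was 9.62 and 9.63, against 9.69 to 9.77 on the others. This did not hold for every role: the mean of the CDK inhibitors was highest on non-silencing replicate 3, at 7.24, that of the MYC factors there was 10.31, and on TCF7L1 siRNA replicate 2 the means of the G1 cyclins and their kinases, 9.94, and of the G1/S genes, 8.62, were not among the 2 lowest. With the array spread as a covariate, the median of the 45 genes was -0.03, 0.0092 and -0.03 in the same 3 comparisons, and that of the 12 mitosis genes against no siRNA was -0.11. With quantile normalization that mitosis median was -0.12.

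**Figure D4:**
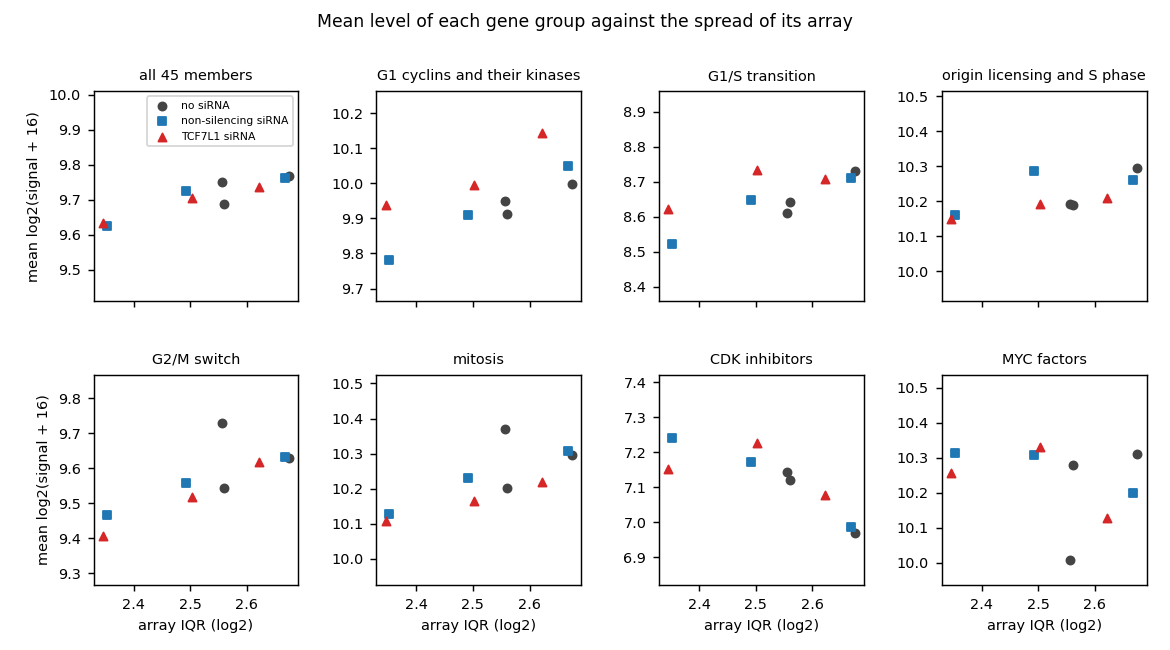
Mean log2(signal + 16) of all 45 genes and of each role (vertical axes, each 0.6 log2 units tall) against the interquartile range of log2 signals on the same array; each point is 1 of 9 arrays, marked by group. The 2 arrays of narrowest spread carry the lowest means over the 45 genes together, though not for every role.

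A further 126 genes of the cycle, none of them among the 45, gave the same count of calls. Of the 125 tested, 0 passed in any comparison by limma, and an unadjusted p under 0.05 was found for 0 between the siRNAs, 2 between the controls and 7 between TCF7L1 siRNA and no siRNA, all 7 lower. These are 0%, 1.6% and 5.6% of the 125, against 2.58%, 2.41% and 7.26% of all tested probe sets in either direction. Against no siRNA, 1068 of the 22784 tested probe sets were lower at such a p. Their median log2 difference was -0.04, -0.06 and -0.12, where the medians over all tested probe sets were -0.005, -0.01 and -0.02. The difference was above 0 for 29, 28 and 18 of the 125, against 47.8%, 46.3% and 45.8% of all tested probe sets. Against no siRNA the groups did not overlap for 22 lower and 1 higher, against 7.93% and 6.43%. In that comparison 2 of the 52 mitosis genes of this list lay above 0. These counts are from the main scaling only. Those with the smallest p were the securin PTTG1, with -0.42 ± 0.14 (SE) against no siRNA and -0.27 ± 0.14 between the siRNAs, and the CDK inhibitor CDKN1A, with -0.38 ± 0.12 against no siRNA. CDKN1A gave 302, 378 and 328 in untreated cells, 273, 255 and 221 in non-silencing controls and 249.5, 231 and 279.9 after TCF7L1 siRNA. Both siRNA groups lay below the untreated one and overlapped each other, with -0.40 ± 0.12 between the controls (limma adjusted p = 0.927). The CDK1-inhibiting kinase PKMYT1 differed by -0.22 ± 0.11 between the siRNAs, and FBXW7, which targets cyclin E for destruction, by -0.33 ± 0.13 between the controls.

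The 5 probe sets left aside belong to 4 genes. Probe sets on the opposite strand of CCND1, RBL1 and BIRC5 read 229 to 298, 27.6 to 58.9 and 27.1 to 40.5 over the 9 arrays, where the sense probe sets read 962 to 1331, 167 to 213 and 446 to 539.7. They may measure other transcripts and were not merged. The one opposite RBL1 read 27.6, 36.4 and 34.7 in untreated cells and 45.6, 58.9 and 44.0 after TCF7L1 siRNA, with a log2 difference of 0.42 ± 0.12 (SE) against no siRNA (adjusted p = 0.563), where all 3 TCF7L1 siRNA values were above all 3 untreated ones. The non-silencing values of the same probe set, 37.2, 48.2 and 43.3, were also above all 3 untreated ones, with a log2 difference of 0.27, and overlapped those with TCF7L1 siRNA, from which they differed by 0.15 ± 0.12 (SE). Of all tested probe sets, 6.43% were higher without overlap between TCF7L1 siRNA and no siRNA, and 2.47% between the controls. The 3 untreated values of this probe set lay below the negative control medians of their own arrays, so its differences describe dim signal. 2 short probe sets inside WEE1 read 122 to 200.0 and 223 to 352, against 737 to 907 for the probe set that spans the gene.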

How the data were processed

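Transcripts were measured in 9 samples of H9 cells, 3 in each of 3 groups taken from the sample titles, on 1 array each. Per the labels, total RNA was turned into fragmented, biotin-labelled single-stranded DNA. The authors deposited intensity signals on a linear scale, 1 per probe set and array, from PLIER 2.0 in Affymetrix Expression Console 1.1.1 per the submitters' processing notes. How background and normalization were handled is not given in the sources used here. Values of the 2 deposited tables were equal (largest difference 0), and neither the labels nor the files name a batch. Positions in the deposited annotation are on build 37, since 97.5% of 5950 probe sets whose text gives a position on that build overlapped it. Promoter sequences came from RefSeq (GRCh38.p14).

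Signals were turned into log2(signal + 16), which understates the change of dim genes. Of 29096 probe sets that were not controls, 22784 lay above the 25th percentile of their own array on at least 3 arrays and were tested. A model with 1 mean per group was fitted with limma 3.58.1 under R 4.3.3 to all 9 arrays (two-sided moderated test, 6 residual and 4.89 prior degrees of freedom, Benjamini-Hochberg adjustment over the tested probe sets of a comparison, threshold 0.05), and was tested on simulated data. The number of arrays limits the precision, and differences had a median SE of 0.12. For a gene with several probe sets, the one of the longest span was used. Folds are on the log2(signal + 16) scale.

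The member genes and lists were chosen with earlier results of these data known. Values per sample were given for the 5 genes of smallest p in each comparison, for MYC, MYCN, CCND1, CCND2, CCND3, CDKN1B and CDKN2C, and for the genes of largest and smallest SD within groups; of the other cycle genes, the 2 of smallest p per comparison were named. Alternatives were other offsets (1 and 64), quantile normalization, no filter and a filter at the array median, only the 2 groups compared, a replicate block, the array spread as a covariate, an intensity trend, the second deposited table, each sample left out, and, added after the data were seen, the 2 arrays of narrowest spread left out. The labels do not say whether replicate numbers pair the samples, and the values did not settle it. Deviations of same-numbered samples correlated between -0.26 and 0.68 (median 0.17, 9 pairs). Those of samples of different numbers correlated between -0.75 and 0.71 (median -0.07, 18 pairs).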

Additional observations from a re-analysis of the deposited data

How the results depend on the processing

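With TCF7L1 siRNA against non-silencing siRNA, 0 of 45 cell cycle genes passed limma's adjusted threshold under every alternative except the array spread as a covariate, under which 1 passed (CDK6, with a log2 difference of 0.62). In the other 2 comparisons 0 passed under every alternative run. Among these, the second deposited table holds equal values, so its outcome could not differ. At an unadjusted p under 0.05 the number of cell cycle genes ran from 2 to 5 between the siRNAs (4 as reported), from 0 to 3 between the controls (0 as reported) and from 2 to 7 between TCF7L1 siRNA and no siRNA (3 as reported). The median over the 45 genes between the controls, -0.05 as reported, was 0.0092 with the array spread as a covariate and 0.0066 without the 2 arrays of narrowest spread, and ran from -0.087 to 0.0066 when each sample was left out, the highest without non-silencing replicate 3. Of the 2 narrow arrays only non-silencing replicate 3 enters this comparison, so both values of 0.0066 are the same check. Between the siRNAs, -0.03 as reported, it ran from -0.065 to 0.00038, the highest without TCF7L1 siRNA replicate 2. Over all tested probe sets, 6 were called between the siRNAs, 25 with the array spread as a covariate and 4 to 6 with a sample left out. Against no siRNA 12 were called, 22 with the array spread as a covariate, 5 without the 2 arrays of narrowest spread and 3 to 15 with a sample left out.

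With the replicate number as a block, 11 probe sets were called between the siRNAs and 20 between TCF7L1 siRNA and no siRNA, and 0 of 45 cell cycle genes in each comparison. Whether the numbers pair the samples is not said by the labels, and 5 of 9 samples were closest to one of their own number. Under the filter at the array median CDKN2C was not tested. With 3 samples a group, intervals that lay within 1.5-fold leave smaller differences undetected, and dim genes such as CDKN2C have too little signal for a statement. The causes of these shifts were not tested.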
